A study of Mus musculus with 15 samples.

Results

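The 26S proteasome is the protease that degrades ubiquitin-tagged proteins. Except for Psmc3ip and Psme3ip1, which are counted with them, the genes described here encode its subunits, activators, inhibitor and assembly factors. All were chosen by symbol alone, as every gene whose name starts with Psma, Psmb, Psmc, Psmd, Psme, Psmf or Psmg. This gave 41 genes of 9834 on the array, read by 51 of 20205 probes, and all 41 entered the 9720 genes tested. Of these, 38 had a value on every array, and 7 were read by more than 1 probe. The subunit genes Psma3, Psmc1, Psmd1, Psmd3, Psmd8 and Psmd12 were not analysed here. RNA of a treated lymphoid ES cell line of the mouse (ES cells are pluripotent cells of the early embryo) was compared with untreated RNA of that line, both on each of 15 cDNA arrays. Cy5 marked the treated RNA on 8 arrays, numbered 1 to 8 and called Cy5 arrays here, and Cy3 marked it on the 7 dye swaps, numbered 9 to 15. The labels do not name the treatment, its dose or its duration, nor say what makes the line lymphoid. They do not give the number of cultures or which arrays share RNA, and their protocol speaks of organs and of a pool of control animals, which does not match a cell line. If arrays repeat the same extracts, the p-values below measure technical spread.

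The proteasome is a barrel-shaped core particle capped by a regulatory particle. The core is built from outer alpha rings and inner beta rings, and 3 kinds of beta subunit carry the proteolytic sites. In lymphoid cells, and in other cells after exposure to interferon gamma, the catalytic subunits Psmb5, Psmb6 and Psmb7 can be replaced by Psmb8, Psmb9 and Psmb10. The resulting immunoproteasome, often paired with the PA28 activator made of Psme1 and Psme2, yields peptides for presentation on MHC class I molecules. The regulatory particle recognises, deubiquitinates and unfolds substrates. Its ATPase ring is encoded by the Psmc genes.

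Every value is a deposited log2 ratio, whose direction the sources used here do not give. Values that stand for an empty channel were above 0 in all 1117 cases on the Cy5 arrays and below 0 in all 882 cases on the dye swaps. A treated over untreated ratio gives this pattern if the empty channel was Cy3 throughout. An untreated over treated ratio gives it equally if the empty channel was Cy5 throughout, and which channel was empty is not known. In both cases the deposited swaps are already turned. A ratio of fixed dyes, with the swaps not turned, gives it only if the empty channel held the same RNA throughout. That RNA would be the untreated for Cy5 over Cy3 and the treated for the reverse. Which of these holds was not tested. A value above 0 is read here as more RNA in the treated cells, which is an assumption. The treatment estimate is the mean of the averages of both dye orientations. The dye effect is 0.5 times the difference between them, treated in Cy5 minus treated in Cy3. If the swaps were not turned in the deposited table, these quantities would trade places. Ratios hold no expression levels, so the markers of the labelled cell type could not be checked for presence, and fewer cells of a type cannot be told apart from less RNA per cell. Measured values numbered 19213 to 19973 per array. Over all probes, the arrays tracked each other little. The median correlation between arrays was 0.091 within the Cy5 arrays, 0.034 within the dye swaps and -0.058 between opposite orientations. Arrays 7, 8 and 15 stood apart in earlier results of these data and were left out together as 1 alternative.

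No proteasome gene passed the test for a difference between treated and untreated RNA. In limma, with Benjamini-Hochberg adjustment over all genes, 0 of 41 passed the threshold of 0.05, where 0.0412% of all genes passed. At an unadjusted p under 0.05 there were 2 of 41 (4.88%), against 7.02% of all genes. Both were above 0, as were 3.94% of all genes at that threshold, and 0 were below, where 3.08% of all genes were. The treatment estimate was above 0 for 21 genes and below 0 for 20. Its median was 0.0084, beside 0.0054 over all genes tested. The typical size of a member's estimate, the median of the absolute values, was 0.053 for the proteasome and 0.075 over all genes. With the swaps as deposited, the estimates were bounded more tightly than a doubling of the ratio for nearly every gene. They average arrays that tracked each other little. The 95% interval lay between -1 and 1 (log2) for 40 of 41 genes (97.6%, beside 97.9% of all genes), all but Psmg2. It lay between -0.5 and 0.5 for 34 (82.9%, beside 84.3% of all genes). The 7 with wider reach were Psmb5, Psmb11, Psmc2, Psmd10, Psme1, Psme4 and Psmg2.

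**Figure D1:**
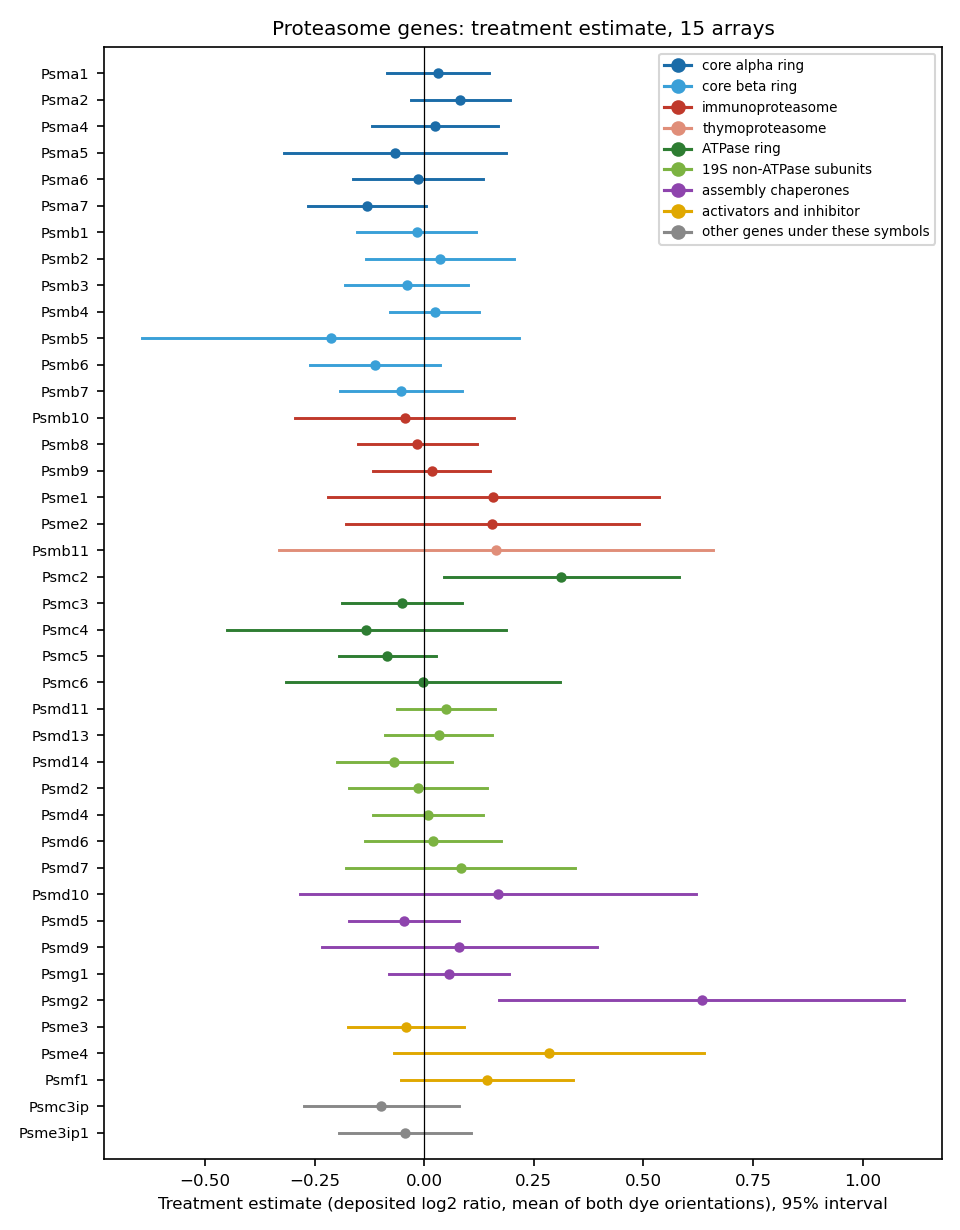
Treatment estimate of each of the 41 genes (point, log2) with its 95% interval (line) from the fit of 15 arrays, coloured by role. Intervals cross 0 for all genes except Psmc2 and Psmg2, neither of which passed after adjustment.

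The alpha ring, which closes the ends of the core, was represented by 6 genes, 3 above and 3 below 0, with a median of 0.0054. Psma2 was at 0.08 ± 0.05 (SE, n = 15 arrays; adjusted p = 0.774 in limma). It lay between -0.13 and 0.48 on the Cy5 arrays (median 0.09, n = 8) and between -0.04 and 0.23 on the dye swaps (median 0.05, n = 7). Psma7 was at -0.13 ± 0.06 (adjusted p = 0.712). Its values ran from -0.51 to 0.16 (median -0.20) and from -0.41 to 0.22 (median -0.01). Both genes had values on either side of 0 in each orientation, so no order within the ring could be read from them. Psma1, Psma4, Psma5 and Psma6 lay between -0.07 and 0.03. With the swaps turned, the 6 genes would run from -0.15 for Psma5 to 0.13 for Psma4.

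The 7 constitutive beta subunits had a median of -0.040, and 2 lay above 0 and 5 below. The structural subunits Psmb1, Psmb2, Psmb3 and Psmb4 stayed within 0.04 of 0. The catalytic subunits were all below 0 without passing the test. Psmb6 was at -0.11 ± 0.07 (SE; adjusted p = 0.764; -0.06 without array 15) and Psmb7 at -0.05 ± 0.07 (adjusted p = 0.865). Psmb5 was at -0.21 ± 0.20 (n = 13 arrays; adjusted p = 0.834), and its arrays disagreed by orientation. On the Cy5 arrays its values ran from -0.32 to 2.20 (median -0.07, n = 7), and on the dye swaps from -1.59 to -0.01 (median -1.05, n = 6). Of its 13 values, 5 equalled the ratio of small whole numbers, as spots of very low signal give, and 1 further value was a placeholder. With that placeholder left in, the estimate would be -1.31, and without array 1 or array 14 it was -0.36 or -0.14. With the low-signal values left out it was -0.48 (adjusted p = 0.534 in limma).

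The immunoproteasome genes lay on both sides of 0, and none passed. Of the 5, Psmb9, Psme1 and Psme2 were above 0 and Psmb8 and Psmb10 below, with a median of 0.018, beside 0.0028 for the other 36 genes. Psmb8 was at -0.02 ± 0.06 (SE, n = 15 arrays), with a 95% interval from -0.15 to 0.12. On the Cy5 arrays it ran from -0.28 to 0.34 (median 0.07), and on the dye swaps from -0.34 to 0.32 (median -0.12). Psmb9 was at 0.02 ± 0.06, with an interval from -0.12 to 0.15. Its values ran from -0.31 to 0.27 (median 0.06) and from -0.42 to 0.33 (median -0.02). For both catalytic subunits the orientations overlapped, and with the swaps as deposited the 95% intervals reach 0.15 from 0 at most. With the swaps turned, the intervals would run from -0.07 to 0.20 for Psmb8 and from -0.12 to 0.15 for Psmb9.

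Psmb10 was at -0.04 ± 0.12 (interval -0.29 to 0.21). It was below 0 on all 7 dye swaps (-0.38 to -0.03, median -0.28) and on 5 of 8 Cy5 arrays (-0.45 to 1.49, median -0.07). The highest value, 1.49, came from array 7, without which the estimate was -0.14 and did not pass. The PA28 subunits were measured less tightly. Psme1 was at 0.16 ± 0.18, with values from -0.93 to 1.27 (median 0.19) and from -0.69 to 1.64 (median 0.01). Psme2 was at 0.16 ± 0.16, with values from -0.56 to 0.27 (median -0.17) and from -0.17 to 2.46 (median 0.14). The highest values of Psme1 and Psme2, 1.64 and 2.46, both came from array 15. Without that array the estimates were 0.03 and -0.01.

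On single arrays the median of the immunoproteasome genes minus that of the other proteasome genes ran from -0.45 on array 1 to 0.34 on array 3. It was above 0 on 6 arrays and below 0 on 9, with a mean of -0.038 ± 0.21 (SD, n = 15). On the Cy5 arrays it was above 0 on 4 of 8 arrays, and on the dye swaps on 2 of 7.

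**Figure D2:**
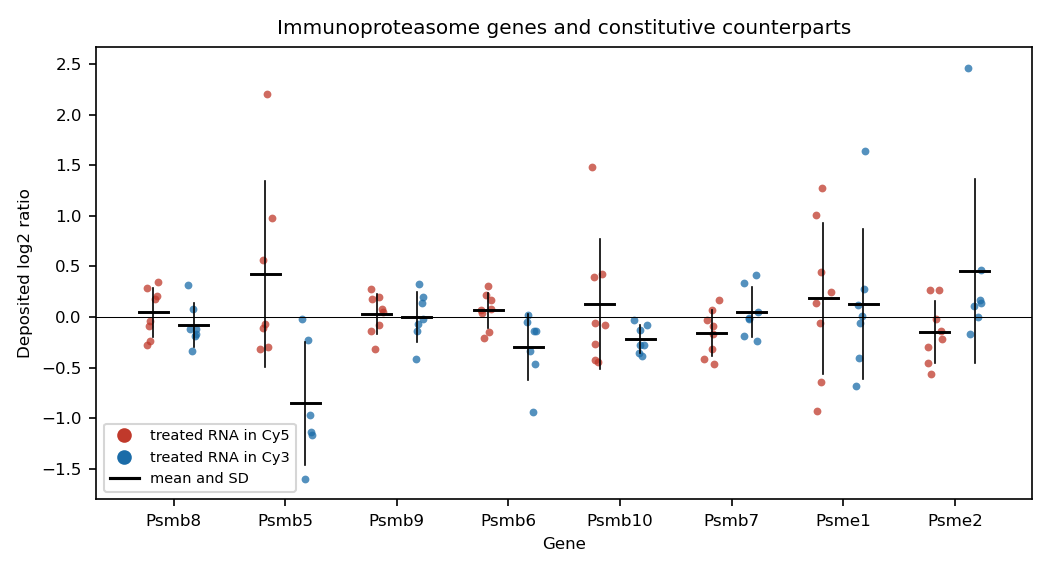
Deposited log2 ratio of the immunoproteasome genes beside the constitutive catalytic subunits that they replace, 1 point per array, in red for Cy5 arrays and in blue for dye swaps; bars give mean and SD. Psmb8 and Psmb9 scatter around 0 in both orientations, while Psmb10 and Psme2 pass 1 in size on 1 array each, Psme1 on 3 and Psmb5 on 4 of its 13.

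Promoters of Psmb6 and Psmb9 are shown because Psmb9 takes the place of Psmb6 in the immunoproteasome, and because the values of Psmb6 rest on a pair of probes that tracked each other (below). Sequences are from RefSeq (GRCm38.p6), 250 bases before to 50 after the gene's start, on the gene's strand, at chr11:70525107-70525406 (plus strand) for Psmb6 and chr17:34187281-34187580 (minus strand) for Psmb9. Capitals mark matches to the motifs searched, here 1 antioxidant response element core (TGACNNNGC) in Psmb6 and 1 CCAAT box in Psmb9.
Psmb6: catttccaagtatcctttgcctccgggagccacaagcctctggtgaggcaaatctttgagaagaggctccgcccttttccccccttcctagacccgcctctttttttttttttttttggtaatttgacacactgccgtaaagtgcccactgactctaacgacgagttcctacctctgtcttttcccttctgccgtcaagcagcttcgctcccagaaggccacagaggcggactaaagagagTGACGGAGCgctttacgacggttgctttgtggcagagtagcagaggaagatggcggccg
Psmb9: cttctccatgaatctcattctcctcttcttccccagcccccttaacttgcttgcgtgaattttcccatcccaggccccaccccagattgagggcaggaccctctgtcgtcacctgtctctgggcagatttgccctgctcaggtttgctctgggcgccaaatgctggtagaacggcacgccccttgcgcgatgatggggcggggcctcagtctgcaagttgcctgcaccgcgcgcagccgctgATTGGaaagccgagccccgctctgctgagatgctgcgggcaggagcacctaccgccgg

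The ATPase ring unfolds substrates and opens the core. Its 5 genes had a median of -0.051, with Psmc2 alone above 0. Psmc2 was at 0.31 ± 0.13 (SE, n = 15 arrays; unadjusted p = 0.0250, adjusted p = 0.657 in limma), a ratio of 1.24. It was above 0 on 7 of 8 Cy5 arrays (-0.53 to 1.78, median 0.23) and on 5 of 7 dye swaps (-0.15 to 0.72, median 0.24). The groups overlapped and shared their sign, but the highest value was again on array 7, and without it the estimate was 0.21 (adjusted p = 0.656). Psmc5, read by 3 probes, was at -0.08 ± 0.05 and Psmc3 at -0.05 ± 0.06. Psmc4 (-0.13 ± 0.15) and Psmc6 (0.00 ± 0.15) each had 1 value near -2, at -1.96 and -2.05, both on array 7.

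The scaffold, receptor and lid subunits of the regulatory particle were read through 7 genes. Their treatment estimates lay between -0.07 and 0.08, and every 95% interval lay between -0.5 and 0.5. Psmd4, a receptor for ubiquitin chains, was at 0.01 ± 0.06, the base scaffold Psmd2 at -0.01 ± 0.07, and Psmd14, the deubiquitinase of the lid, at -0.07 ± 0.06. Psmd7, the partner of Psmd14, was at 0.08 ± 0.12. Psmd6, Psmd11 and Psmd13, further lid subunits, were at 0.02, 0.05 and 0.03. With the swaps turned, the 7 estimates would run from -0.19 for Psmd6 to 0.33 for Psmd14.

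Assembly chaperones hold subunits during construction of the rings and then leave. Psmg2, a chaperone of the alpha ring, was at 0.63 ± 0.21 (SE, n = 13 arrays; unadjusted p = 0.0108, adjusted p = 0.561 in limma), a ratio of 1.55. It was the highest of the 41 genes in the deposited direction, but with the swaps turned it would be at -0.03 and Psmb5 highest, at 0.64. It was above 0 on all 6 dye swaps with a value (0.24 to 1.51, median 0.43) and on 5 of 7 Cy5 arrays (-1.19 to 2.20, median 0.82). Both orientations therefore had their mean above 0, at 0.60 and 0.66, and the low values were on arrays 7 (-1.19) and 8. Without array 7 the estimate was 0.78 (adjusted p = 0.181), and without arrays 7, 8 and 15 it was 0.81 (adjusted p = 0.0793). Neither passed. Of the 13 values, 5 were low-signal whole-number ratios, and with such values left out too few arrays remained for a fit. Psmg1, which forms a pair with Psmg2, was at 0.06 ± 0.06. The chaperones of the ATPase ring were at -0.05 ± 0.06 (Psmd5), 0.08 ± 0.15 (Psmd9) and 0.17 ± 0.21 (Psmd10). Psmd10 had 1 value of 3.36 on array 7 and otherwise ran from -0.29 to 0.27.

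Among the alternative activators, Psme4 (PA200) was at 0.28 ± 0.17 (adjusted p = 0.761), with values from -0.54 to 2.08 (median 0.35) and from -0.61 to 0.59 (median 0.13). Without array 4, which held the highest value, it was at 0.17. The nuclear activator Psme3 was at -0.04 ± 0.06. Psmf1, the inhibitor PI31, was at 0.14 ± 0.09 (adjusted p = 0.774); it was above 0 on 7 of 8 Cy5 arrays and on 2 of 7 dye swaps. Without array 7 it was at 0.09, and without array 15 at 0.07. Its 2 probes did not track each other (r = -0.13). The high value on array 7 came from 1 of them (1.59) and that on array 15 from the other (2.09). Psmb11, the catalytic subunit of thymic cortical epithelium, was at 0.16 ± 0.23 (n = 14 arrays), with 7 of 14 values at low-signal ratios. Psmc3ip, a factor of meiotic recombination that is no subunit, was at -0.10 ± 0.08, and Psme3ip1, a partner of Psme3, at -0.04 ± 0.07.

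Each dye orientation was also fitted on its own. Again 0 of 41 genes passed, where 0 of 9720 genes (0%) did. At an unadjusted p under 0.05 there were 3 of 41 on the Cy5 arrays (7.32%, beside 13.1% of all genes): Psma7, Psmd14 and Psme3. On the dye swaps there were 9 of 41 (22.0%, beside 14.5%). Of these, Psmb5, Psmb6, Psmb10, Psmc3 and Psmd14 were below 0 and Psmb2, Psmd6, Psmg1 and Psmg2 above. Only Psmd14 was in both groups, with opposite signs. The medians of the 41 genes were 0.032 and 0.039.

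The difference between orientations was the larger component, and 1 proteasome gene passed for it. Psmd14 had a dye effect of 0.33 ± 0.06 (SE, n = 15 arrays; adjusted p = 0.0128 in limma). On the Cy5 arrays it was above 0 on 7 of 8 arrays, at a lowest value of -0.07, a median of 0.21 and a highest of 0.68. On the dye swaps it was below 0 on all 7 arrays, from -0.72 to -0.21 with a median of -0.39. The orientations did not overlap, which held for 1 of 41 proteasome genes and for 1.44% of all genes. That 1 of 41 genes (2.44%) passed is close to the 2.61% called over all genes (1.92% with a dye effect above 0, as here), and at an unadjusted p under 0.05 the shares were 22.0% and 19.5%. If the swaps remained to be turned, Psmd14 would be the single proteasome gene with a treatment difference, 0.33 in size, among 254 genes. Its probe is the only one under its symbol. The call held in all 25 other settings in which the dye effect was fitted with the swaps as deposited (0.30 to 0.36; adjusted p 0.00948 to 0.0314). Leaving out array 1 added Psmc3 and leaving out array 2 added Psmb2, so that 2 genes passed.

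The promoter of Psmd14 is shown as that of the single gene called. It is the RefSeq sequence (GRCm38.p6) at chr2:61711444-61711743 on the plus strand, and capitals mark 3 CCAAT boxes, read on either strand, of which the pair near the gene's start overlaps.
Psmd14: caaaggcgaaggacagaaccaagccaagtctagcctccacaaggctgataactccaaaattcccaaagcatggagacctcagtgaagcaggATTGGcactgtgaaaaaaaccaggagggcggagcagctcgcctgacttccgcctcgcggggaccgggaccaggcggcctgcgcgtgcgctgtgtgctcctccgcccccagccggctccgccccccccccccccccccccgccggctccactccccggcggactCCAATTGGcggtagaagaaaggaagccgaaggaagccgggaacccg

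Other genes came near the threshold for the dye effect. Psmc3 was at 0.24 ± 0.06 (SE; adjusted p = 0.0547 in limma), below 0 on all 7 dye swaps (-0.67 to -0.10, median -0.24) and between -0.13 and 0.48 (median 0.20) on the Cy5 arrays. Psme3 was at -0.21 ± 0.06 (adjusted p = 0.0738), from -0.75 to 0.08 (median -0.15) on the Cy5 arrays and from -0.09 to 0.41 (median 0.17) on the dye swaps. Psmb5 had the largest value, 0.64 ± 0.20 (adjusted p = 0.0992). Psmd6 (-0.19 ± 0.07; adjusted p = 0.159) was above 0 on all 7 swaps, and Psmb2 (-0.20 ± 0.08; adjusted p = 0.172) on 6. The dye effects of these genes took both signs, and none of them passed. The dye effects of the 41 genes had a median of 0.017, with 24 above 0 and 17 below, beside -0.0034 over all genes.

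**Figure D3:**
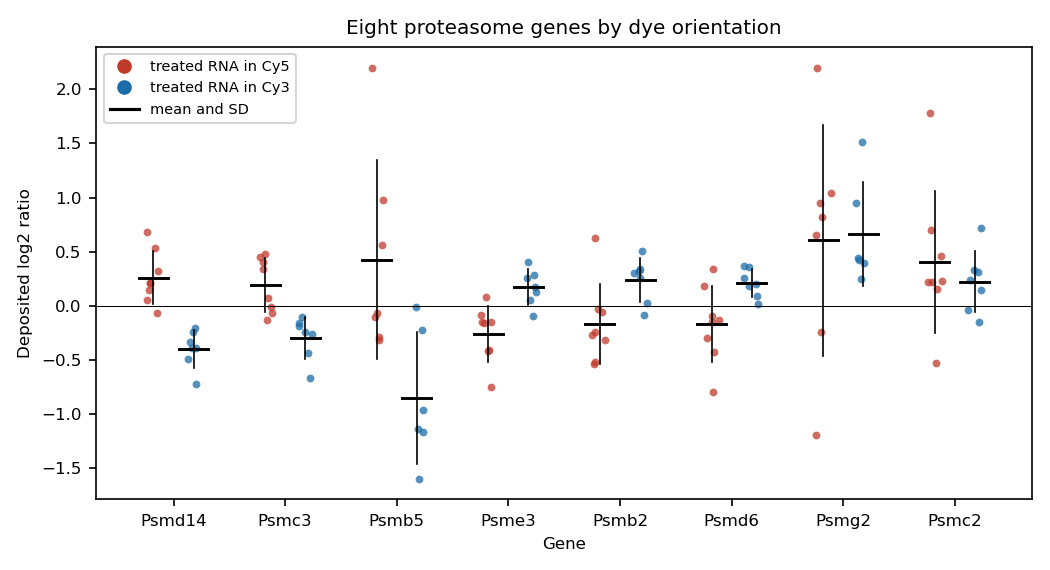
Deposited log2 ratio per array of 8 proteasome genes, in red for Cy5 arrays and in blue for dye swaps; bars give mean and SD. Psmd14 is the gene whose red and blue points do not overlap, while Psmg2 and Psmc2 lie mostly above 0 in both colours.

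**Figure D4:**
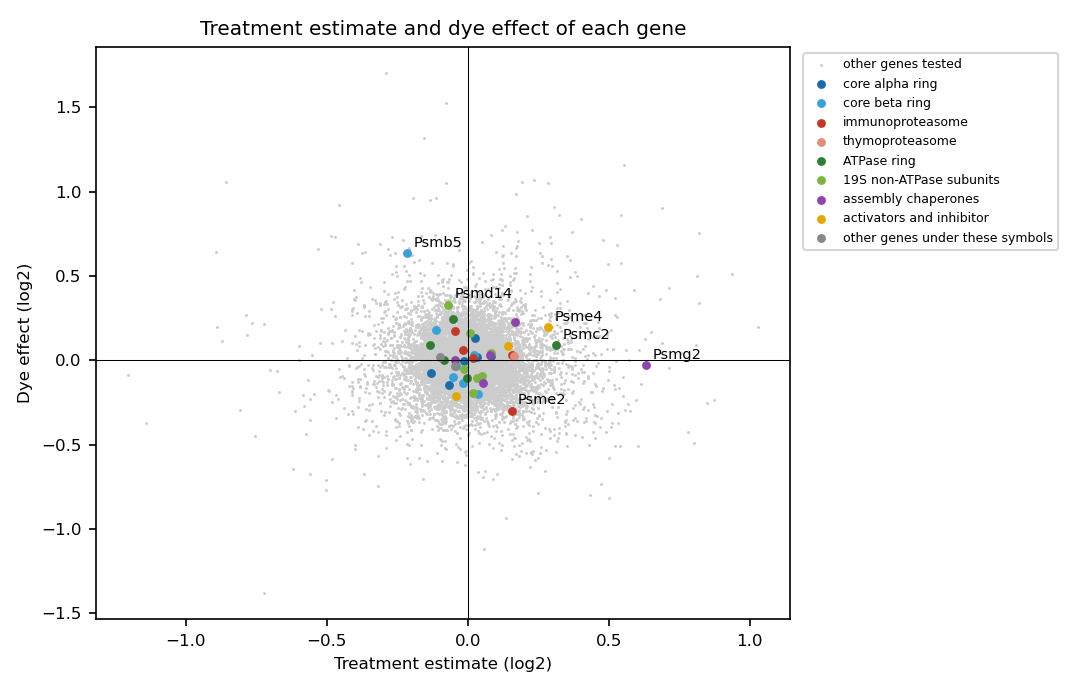
Treatment estimate (x axis) against dye effect (y axis), both log2, for the 41 proteasome genes coloured by role and all other genes tested in grey. The proteasome genes farthest from the centre are Psmg2, at 0.63 on the x axis, and Psmb5, at 0.64 on the y axis, both within the range of all genes.

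Where a gene was read by several probes, these seldom tracked each other. Over 14 probe pairs of 7 genes, the correlation across the 15 arrays was above 0 in 5, with a median r of -0.12. The exception was Psmb6, with r = 0.71 (permutation p = 0.00238, adjusted p = 0.0333) and rho = 0.73 (permutation p = 0.00273, adjusted p = 0.0382), two-sided over 15 arrays. It was 0.56 within the Cy5 arrays, 0.75 within the dye swaps, and 0.69 without the 2 arrays farthest from the median. The arrays may share RNA, so they may not be independent samples. Both probes of Psmb6 had treatment estimates below 0, at -0.14 ± 0.09 and -0.08 ± 0.07 (SE). Signs differed between probes of Psmb4 (0.07 and -0.03), Psmd11 (-0.02 and 0.12) and Psme3ip1, whose 4 probes ran from -0.29 to 0.14. The 3 probes of Psmc5 were all below 0, at -0.03, -0.07 and -0.15. For the dye effect the probes of Psmd5 were at -0.18 and 0.18, which averaged to 0.00. Those of Psmb4, Psmc5, Psmd11, Psmf1 (-0.17 and 0.33) and Psme3ip1 also differed in sign, and only those of Psmb6 shared it (0.23 and 0.13). Among the probes taken singly, 0 of 51 passed for the treatment, beside 0.0503% of all probes. For the dye effect 2 of 51 (3.92%, beside 2.74%) passed, the probe of Psmd14 and 1 of Psme3ip1 (0.26 ± 0.06; adjusted p = 0.0346 in limma). The other probes of Psme3ip1 had dye effects of -0.39, -0.13 and 0.11, and the gene's average was at -0.04.

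The spread of the proteasome genes differed from array to array more than their centre did. Their median ran from -0.15 on array 3 to 0.10 on array 4, and was above 0 on 7 of 15 arrays. Their standard deviation ran from 0.19 on array 11 to 0.89 on array 7, while that of all genes ran from 0.32 to 0.74. Of 610 values, 27 (4.43%) exceeded 1 in absolute size, beside 5.08% of all gene values. Array 7 held 7 of the 27 (17.1% of its proteasome genes, beside 10.2% of all genes on that array). They were Psmd10, Psmc2 and Psmb10 above 0 and Psmc6, Psmc4, Psma5 and Psmg2 below. Arrays 5, 6, 8, 11 and 13 held none. No gene exceeded 1 in the same direction on more than 3 arrays. Psmg2 and Psmb11 did so above 0 on arrays 1, 3 and 15, Psme1 above 0 on arrays 2, 4 and 15, and Psmb5 below 0 on arrays 9, 12 and 14. Values matching low-signal whole-number ratios made up 45 of 760 probe values of the proteasome (5.92%), beside 10.3% of all values. Of the 45, 21 fell on Psmb5, Psmb11, Psmd7 and Psmg2.

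**Figure D5:**
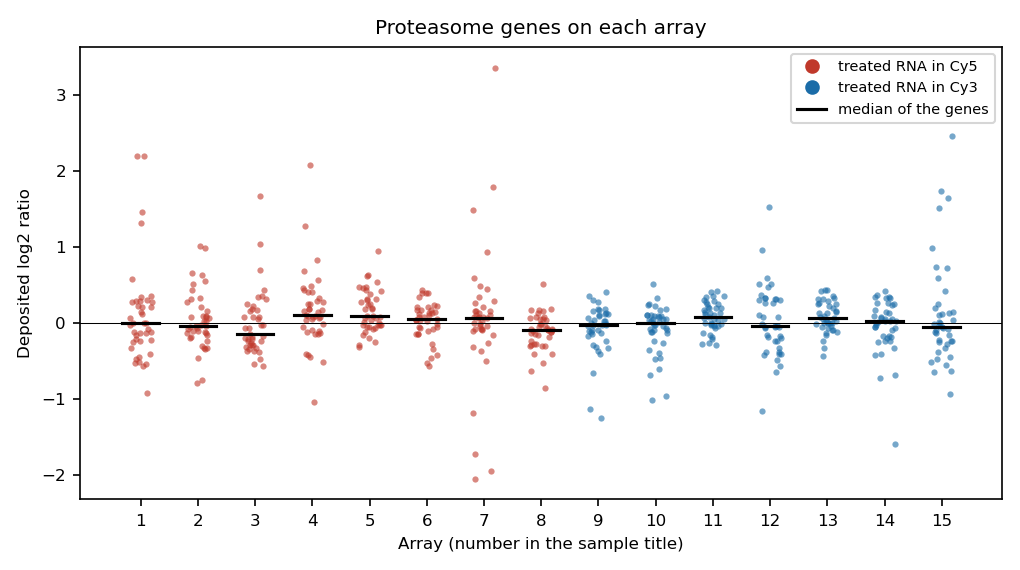
Deposited log2 ratios of the 41 proteasome genes on each of the 15 arrays, 1 point per gene, with the median as a black line; Cy5 arrays are red and dye swaps blue. Medians stay within 0.15 of 0, while array 7 carries the widest scatter, up to 3.36 for Psmd10.

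Genes that act with the proteasome were described from lists by function. Of 64 such genes 39 were tested, and none passed for the treatment estimate. Their median was -0.028, with 13 above 0 (33.3%, beside 52.0% of all genes) and 26 below. At an unadjusted p under 0.05 there were 3 (7.69%, beside 7.02% of all genes). Proteasome-bound factors outside the Psm symbols (7 tested) had a median of -0.0085. The lid subunit Sem1 was at -0.02 ± 0.06 (SE) and the core maturation factor Pomp at -0.07 ± 0.06. All 7 had a dye effect above 0, where 49.2% of all genes did. In the pathway lists 3 of 39 genes passed for it (2.61% of all genes did), the interferon genes Irf9 and Ifngr2 and, among these 7, Sem1 (0.22 ± 0.06; adjusted p = 0.0442 in limma). Shuttle factors and the segregase Vcp (8 tested) had a median of 0.031, with Vcp at 0.08 ± 0.08.

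The transcription factor Nfe2l1, which drives proteasome genes when the proteasome is blocked, was at -0.01 ± 0.09. Its relative Nfe2l2, which responds to oxidative stress, was at 0.06 ± 0.23. The 6 genes of class I antigen presentation had a median of -0.037, and 4 lay below 0. Tap1, the peptide transporter gene that lies between Psmb9 and Psmb8 in the RefSeq annotation (GRCm38.p6), was at -0.06 ± 0.09, and B2m, the light chain of class I molecules, at 0.05 ± 0.09. Of 12 regulators of interferon signalling 9 were below 0, with a median of -0.097. Irf1, an activator of immunoproteasome genes, was at -0.04 ± 0.14, and the 3 at an unadjusted p under 0.05, where 3.08% of all genes were below 0 at that threshold, were Irf7 (-0.60 ± 0.24), Irf9 (-0.26 ± 0.10) and Socs1 (-0.15 ± 0.07). None of these passed after adjustment. Cell type markers, of which 36 of 56 were tested, did not pass either. Those above 0 were 1 of 9 myeloid markers (median -0.10), 3 of 4 B lymphoid (0.072), 1 of 4 T lymphoid (-0.066), 3 of 5 general leukocyte (0.084), 4 of 7 pluripotent (0.052) and 5 of 7 fibroblast markers (0.048), beside 52.0% of all genes.

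Promoters of 35 of the 41 genes were found in the RefSeq table, as 39 windows of the same length, and were searched on both strands. The CCAAT box (CCAAT) was in 14 of 39 windows (35.9%), beside 37.4% of all 32851 promoters, and the antioxidant response element core (TGACNNNGC) in 5 (12.8%, beside 12.4%). Psmb5, Psmb6, Psmc6, Psmd9 and Psme4 held the latter. The interferon-stimulated response element core (GAAA, any 2 bases, GAAA) was in 4 windows, those of Psmb3, Psmd4, Psmd9 and Psme1 (10.3%, beside 3.44%), and the interferon gamma activated site (TTCNNNGAA) in 3, of Psmb8, Psmd2 and Psmg1 (7.69%, beside 8.30%). These counts describe the letters in the windows. Among neighbouring proteasome genes in that annotation, Psmb5 and Psmb11, which are adjacent, were at -0.21 and 0.16. Psmb9 and Psmb8, on either side of Tap1, were at 0.02 and -0.02, and Psme1 and Psme2, on either side of Emc9, were both at 0.16.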

How the data were processed

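Treated and untreated RNA were hybridised together on 15 cDNA arrays (8 with the treated RNA in Cy5, 7 with it in Cy3, per the labels). The deposited values are log2 ratios of the channels. The scale was read from the values; the sources used here do not give their normalization, background correction, spot filter or direction. Values beyond 10 in absolute log2 (1999, placeholders for an empty channel) were set missing. Probes were named through the platform annotation, with symbols updated by gene identifier through RefSeq (13855 of 13891 probes), and probes of a gene were averaged. Genes with at least 4 values per dye orientation were fitted with limma 3.58.1 in R 4.3.3 (lmFit, eBayes), with the mean of both orientations and a dye term, two-sided, with Benjamini-Hochberg adjustment over all 9720 genes. The fit was tested on simulated data. Probe pairs were compared with 100000 permutations (scipy 1.17.1). The number of arrays limits the precision. Genes described singly were the immunoproteasome genes and their counterparts, the 5 smallest p for treatment and 3 for dye on each side of 0, and genes whose probes differ in sign; others are given briefly by role, and a few of these were picked after their values were seen. Low-signal ratios are values within 0.0015 of log2 of 1 small whole number over another (at most 6), after the array's constant is removed. They were recognised by value alone, without intensities, so some may be ordinary values. The genes, lists and tests were chosen with earlier results of these data known.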

Additional observations from a re-analysis of the deposited data

Results flagged for a closer look

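Psmd14, the deubiquitinase of the proteasome lid, is listed because its effect differed between the dye orientations. The dye effect was 0.33 ± 0.06 (SE, n = 15 arrays; adjusted p = 0.0128 in limma), with a mean of 0.26 on the 8 Cy5 arrays and -0.40 on the 7 dye swaps. From the ratios of this gene, a dye effect and a treatment effect in swaps that remain to be turned cannot be told apart. The placeholder signs go with such swaps only if the empty channel held the same RNA on every array. The group of 15 arrays was too large for the check of single outlying arrays.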

How the results depend on the processing

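Over 29 other settings, the count of proteasome genes passing for the treatment stayed at 0 in all but 1. With the dye swaps turned it was 1 (Psmd14, at 0.33 against -0.07; adjusted p = 0.0128 in limma), and the count for the dye effect was then 0, by construction. That count, 1 as reported, was 2 with arrays scaled, with values on all 15 arrays, with placeholders left in and without arrays 7, 8 and 15. Over all genes 254 of 9720 passed as reported, and 296 of 9720, 331 of 8297, 295 of 9783 and 571 of 9550 in those settings. With array weights it was 6, where 676 of 9720 genes passed. When single arrays were left out it lay between 1 and 2, and the count over all genes between 99 and 431. The medians of the 41 genes and the difference between immunoproteasome and other genes moved by less than their spread between arrays in every setting run. That spread (SD, 0.072 and 0.21) is larger than the values themselves. The median treatment estimate ran from -0.010 to 0.039 and the difference from -0.037 to 0.076, so both took either sign. Of 24 genes described singly, 7 changed sign in at least 1 setting with both orientations and the swaps as deposited, without passing on either side. Turning the swaps changed the sign of further genes, among them Psmb5, Psmg2 and Psmd14, of which Psmd14 then passed. The settings were quantile normalization, scaling, centring, both filters on missing values, no dye term, placeholders, 1 probe per gene, weights, low-signal values left out, each orientation alone, turned swaps and left-out arrays. The cause of these shifts was not tested. Signal over background is unknown here.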
